A study of Mus musculus with 8 samples.

Results

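Sertoli cells of the testis and granulosa cells of the ovary arise from the same gonadal precursors, and a small set of genes marks the choice between them. The 7 genes described here belong to the Sertoli side of that choice or to anti-Müllerian hormone (AMH), which both cell types can make. They are Sox9, Sox8 and Sox10, which encode the SOXE transcription factors, Dmrt1, which encodes a DM domain transcription factor, Ptgds, which encodes prostaglandin D synthase, and Amh and Amhr2, which encode the hormone and its type II receptor. They were chosen by name and matched through their mouse Entrez gene IDs, and 7 of 7 were found among the 24235 genes of the array. Of these, 5 passed the filter on low values that 15637 genes passed, and 2 (Sox10 and Amh) did not.

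The arrays measured cultured ovarian follicle cells from 8-week-old female mice of the Swiss strain, each replicate a pool of 5 animals. The cells were transfected with 12 pmol of siRNA, either a control that targets no mRNA or a pool against Foxl2, together with a pDsRed plasmid in every group. The siRNA acted for 24 h, and total culture took 9 days. The medium had no added androstenedione and contained charcoal-treated serum, and 100 nM 17β-estradiol (E2) or its ethanol vehicle was present for the 10 h before lysis. The sources differ on whether these 10 h fell within the 24 h or followed them. Each combination of siRNA and treatment was measured on 2 one-colour arrays, which gave 4 groups and 8 arrays. The cells were taken from preantral follicles and consist mainly of granulosa cells by the study's description. Of 9 granulosa cell markers 8 were well above background on at least 1 array, and Fshr, the FSH receptor gene, on none. Of 8 oocyte markers, 7 were not well above background on any array.

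In granulosa cells FOXL2, a forkhead transcription factor, keeps the Sertoli programme silent together with estrogen receptors. SOX9 is the factor that sets off and maintains Sertoli differentiation, SOX8 can act beside it, and DMRT1 guards male identity after birth. Prostaglandin D2, the product of PTGDS, is a paracrine signal that feeds back on SOX9. AMH acts through AMHR2 and the type I receptors ACVR1, BMPR1A and BMPR1B on SMAD1, SMAD5 and SMAD9. It makes the Müllerian ducts regress in the male fetus and restrains follicle growth in the ovary.

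Levels are given on the log2 scale as the processed spot intensity scaled to the 75th percentile of its array, so that a difference of 1 is a 2-fold difference. They compare one gene between groups and cannot be set against the level of another gene. Array scaling factors lay between 275 and 367 intensity units, replicate arrays correlated at 0.9893 to 0.9921 across genes, and 0 spots were saturated. With 2 arrays a group, the number of arrays limits the precision of every value, and the p-values measure the spread between these pools only. The 2 probes of the targeted gene, Foxl2, did not change alike, and its level as a gene showed no fall. Foxl2 was at 13.23 ± 0.32 (SD, n = 2) with vehicle and 12.85 ± 0.12 with E2 under the control label, against 13.40 ± 0.01 and 13.04 ± 0.11 under the FOXL2 siRNA label. The change of 0.18 over both treatments (SE 0.10, limma adjusted p = 0.334) shows no fall at the level of the gene, although the dimmer of its 2 probes, A_55_P2041668, fell by 0.97 (limma adjusted p over probes = 0.0199). The brighter probe, A_55_P2037732, sets most of the gene value and changed by 0.18 (limma adjusted p over probes = 0.363). The groups below are therefore the arrays labelled FOXL2 siRNA or control siRNA, and each direction rests on those labels.

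Promoter sequences are shown for the members that a RefSeq promoter table holds, which is 3 of the 7. Each window runs from 250 bases before to 50 bases after the start of the gene on build GRCm38.p6, 5′ to 3′ on the strand of the gene. These 3, Sox8, Amhr2 and Ptgds, are printed only because an entry existed, and their expression played no part in the choice. Sox9, Sox10, Dmrt1 and Amh had no entry. The windows lie at chr17:25570637-25570936 on the minus strand for Sox8, at chr15:102445117-102445416 on the plus strand for Amhr2 and at chr2:25469700-25469999 on the minus strand for Ptgds. Capitals mark matches to motifs searched on both strands. The forkhead words were GTAAACA, held by 3.65% of the 32851 promoter windows of this length, GTAAATA, held by 3.04%, ATAAACA, held by 4.6%, and ATAAATA, held by 5.6%. The NR5A1 word was AAGGTCA. The estrogen response element was GGTCA and, after any 3 bases, TGACC.
Sox8: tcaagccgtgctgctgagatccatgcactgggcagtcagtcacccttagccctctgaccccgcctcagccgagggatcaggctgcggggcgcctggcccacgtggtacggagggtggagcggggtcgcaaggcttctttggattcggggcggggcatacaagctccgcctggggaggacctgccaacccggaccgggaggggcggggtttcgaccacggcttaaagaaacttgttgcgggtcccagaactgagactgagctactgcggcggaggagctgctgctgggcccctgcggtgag
Amhr2: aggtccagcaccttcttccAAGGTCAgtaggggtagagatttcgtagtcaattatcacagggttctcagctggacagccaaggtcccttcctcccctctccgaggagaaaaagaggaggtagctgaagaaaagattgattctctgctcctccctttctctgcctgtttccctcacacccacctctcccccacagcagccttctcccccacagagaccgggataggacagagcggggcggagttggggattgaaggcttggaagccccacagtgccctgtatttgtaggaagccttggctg
Ptgds: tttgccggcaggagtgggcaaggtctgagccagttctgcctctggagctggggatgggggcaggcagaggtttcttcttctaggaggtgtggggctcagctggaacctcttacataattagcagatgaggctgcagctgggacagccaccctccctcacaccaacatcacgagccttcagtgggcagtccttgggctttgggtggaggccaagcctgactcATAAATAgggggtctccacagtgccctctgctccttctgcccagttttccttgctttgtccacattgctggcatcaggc
The Sox8 window, 66.3% G and C, holds none of these words. The Amhr2 window holds 1 NR5A1 word, as do 4.72% of all windows, with its first base at -231 from the start. In the Ptgds window there is 1 forkhead word, the last of those listed, with its first base at -29, and 15.0% of all windows hold at least 1 of the 4 words. The same letters could also be read as a TATA-type word. The estrogen response element is in 0.07% of windows and in none of these 3. A match is a run of letters and was not tested for binding.

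Sox9 (Entrez 20682) was higher in the arrays labelled FOXL2 siRNA than in the arrays labelled control siRNA, whether or not E2 was present. Its log2 levels under the control label were 5.66 and 5.87 with vehicle, then 6.41 and 6.70 with E2. With FOXL2 siRNA they were 8.39 and 8.46 under vehicle and 7.71 and 8.27 under E2. All 4 arrays labelled FOXL2 siRNA lay above all 4 labelled control siRNA, which was so for 10.1% of all genes tested. The change was 2.66 with vehicle (SE 0.21, limma adjusted p = 0.00115), a 6.32-fold difference with a 95% interval of 4.51 to 8.86. With E2 the change was 1.44 (SE 0.21, limma adjusted p = 0.0112), a 2.71-fold difference with an interval of 1.93 to 3.8. In rising order the groups were the control label with vehicle, the control label with E2, the FOXL2 siRNA label with E2 and that label with vehicle, and no neighbours in that order overlapped, although neither step between vehicle and E2 passed the test.

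**Figure D1:**
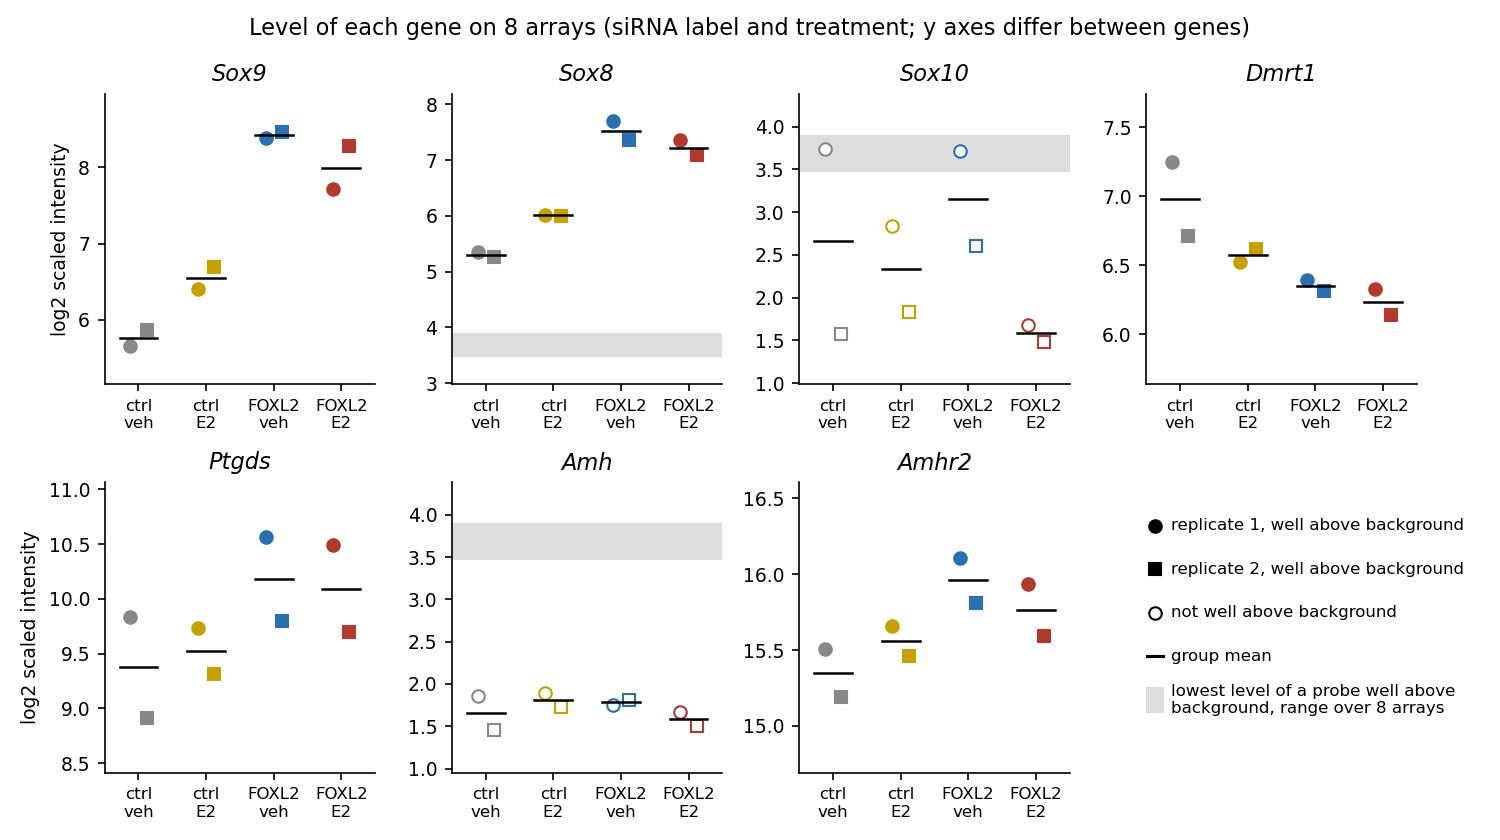
Log2 scaled intensity (y axis, own range per gene) of the 7 genes on the 8 arrays, by siRNA label and treatment (x axis). Circles and squares are replicates 1 and 2, filled where the spot was well above background, bars are group means, and the grey band is the lowest level of a probe well above background (3.48 to 3.89 by array). Sox9 and Sox8 are higher on all 4 arrays labelled FOXL2 siRNA, Dmrt1 is lower on all 4, and Sox10 and Amh have only open symbols.

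The Sox9 value rests on more spots than that of any other member. Its 1 probe, A_52_P214630, is printed 10 times on the array, and 10 of 10 spots were well above background on every array. The SD between these spots lay, by array, between 0.05 and 0.13 log2 units. The other 6 members have 1 probe with 1 spot each. In the plot of the 10 spots, the spots of the replicate arrays do not overlap in either group with E2, where the group SDs were 0.20 with control siRNA and 0.40 with FOXL2 siRNA, and they overlap in both groups with vehicle.

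**Figure D2:**
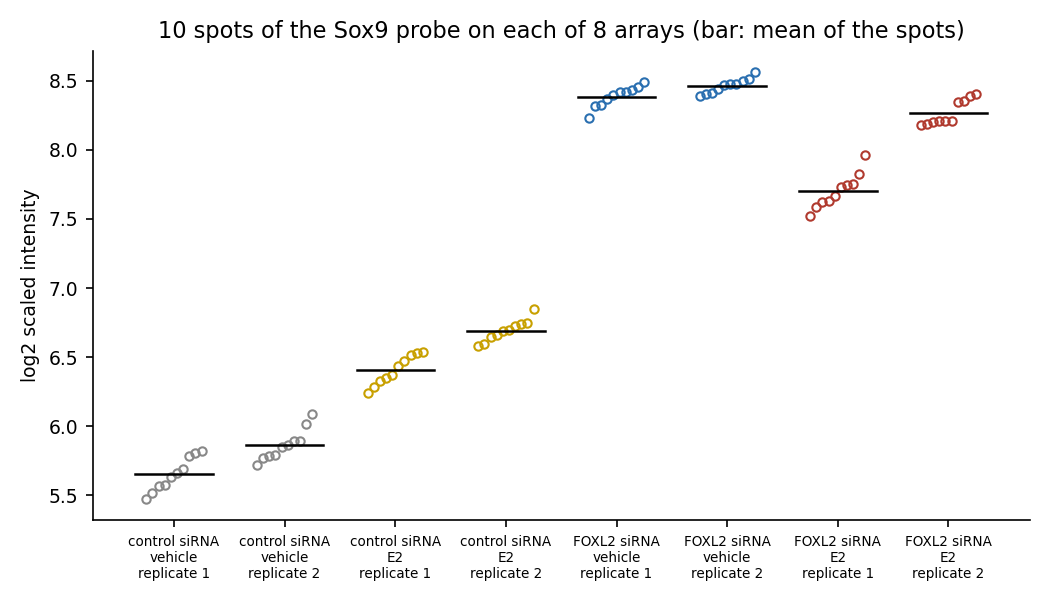
Log2 scaled intensity (y axis) of the 10 Sox9 spots on each of the 8 arrays (x axis), sorted by value within an array, with a bar at their mean. The spots of the arrays labelled control siRNA do not reach those of the arrays labelled FOXL2 siRNA, and the FOXL2 siRNA arrays with E2 are 7.71 and 8.27 on average.

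Sox8 (Entrez 20681) was higher in the same arrays as Sox9. Under the control label its levels were 5.35 and 5.27 with vehicle, then 6.01 and 6.00 with E2. Among the arrays labelled FOXL2 siRNA they were 7.70 and 7.36 with vehicle and 7.36 and 7.08 with E2. Again all 4 arrays labelled FOXL2 siRNA were above all 4 labelled control siRNA, while vehicle and E2 overlapped within the FOXL2 siRNA label. The change was 2.22 with vehicle (SE 0.18, limma adjusted p = 0.0013), which is 4.66-fold with a 95% interval of 3.48 to 6.24. It was 1.21 with E2 (SE 0.18, limma adjusted p = 0.0119), or 2.32-fold with an interval of 1.73 to 3.11.

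Sox10 (Entrez 20665), the third SOXE gene, known from neural crest cells and able to drive testis formation when misexpressed, was not well above background on any of the 8 arrays. The values of its probe lay between 1.49 and 3.74, with raw spot intensities of 39.0 to 49.0 units over a local background of 24.0 to 29.0. No order of the groups can be read from values that low. Among 16 other SOX family genes, 9 were well above background on at least 1 array and 7 were tested. The counts of higher and lower SOX genes were 0 and 0 with vehicle and 0 and 0 with E2, at changes between -0.32 and 0.61. At an unadjusted p under 0.05 there were 0 of 7 with vehicle and 1 of 7 with E2, Sox4, which the replicate block called (-0.32, adjusted p = 0.0175).

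Of the 5 members tested, 2 were called with an adjusted p under 0.05, Sox9 and Sox8, and both were higher. In the comparison with vehicle, 6.57% of all genes were called (3.63% higher, 2.94% lower), with E2 4.39% (2.25% higher, 2.14% lower) and in the mean of both treatments 12.6% (6.4% higher, 6.18% lower). The same 2 members were called in each. The mean change was 2.05 for Sox9 (SE 0.15, limma adjusted p = 0.000304) and 1.72 for Sox8 (SE 0.13, limma adjusted p = 0.000334). The study's own rule was stated for targets of E2 and of nuclear receptors, not for those of FOXL2. That rule asked for 1 log2 unit or more and for a difference exceeding the summed SDs of both groups 2 times over. Sox9 and Sox8 met it with vehicle and with E2, as 2.94% and 2.35% of all genes did, and 0 members met it for E2 against vehicle with control siRNA (0.454% of genes) or FOXL2 siRNA (0.217%). Groups without overlap were found for 3 members in the higher direction with vehicle (Sox9, Sox8 and Amhr2, 22.5% of all genes) and 1 in the lower (Dmrt1, 23.5%). With E2 they were found for 2 (Sox9 and Sox8, 23.3%) and 1 (Dmrt1, 24.7%). With normexp background correction in place of the scanner's, the changes with vehicle were smaller, 1.79 for Sox9 (limma adjusted p = 0.000971) and 1.26 for Sox8 (0.00232), and those with E2 were 1.03 (0.0095) and 0.71 (0.0278). Leaving out any 1 array kept both genes called with vehicle and in the mean of both treatments. With E2, Sox9 lost its call when control siRNA replicate 1 was left out (adjusted p = 0.0957), when control siRNA replicate 2 was (0.0505) and when FOXL2 siRNA replicate 2 was (0.063). Sox8 with E2 was not called without any 1 of the 4 arrays compared (adjusted p = 0.0517 to 0.0918).

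Some of the markers listed for other cells differed between the same arrays. The summed level of 6 surface epithelium markers was 9.32 to 9.66 with control siRNA and vehicle and 9.69 to 9.97 with control siRNA and E2. It was 11.69 to 11.80 with FOXL2 siRNA and vehicle and 11.38 to 11.40 with FOXL2 siRNA and E2. Of these markers, Msln (mesothelin), Muc16 and Upk3b were called higher with vehicle, by 2.50, 2.41 and 1.68, while Lgr5 never stood well above background. With the replicate block, 4 of the 5 tested were called higher with vehicle, 3 with E2 and 4 in the mean of both. The summed level of 7 theca and stroma markers was 14.39 to 14.56 in the arrays labelled control siRNA and 15.27 to 15.36 in those labelled FOXL2 siRNA. Most of this sum was Cyp11a1, which by itself was at 14.02 to 14.29 and at 14.97 to 15.12. Cyp11a1 was the 1 marker of this list called without the replicate block (0.85 with vehicle, limma adjusted p = 0.0021). The 4 tested markers of the list changed by 0.20 to 1.17 with vehicle and by 0.12 to 1.04 with E2. With the block, 3 were called higher with vehicle, 3 with E2 and 4 in the mean of both. Over all genes the block called 10.5%, 7.51% and 14.2% higher. Lhcgr, Pdgfra and Tcf21 were well above background on 0 of 8 arrays. The granulosa cell markers summed to between 16.18 and 16.37 in all groups, with 2 of 8 tested called lower with vehicle. Their single changes with vehicle lay between -1.997 and 0.25, and 3 of 8 were called lower in the mean of both treatments. With the replicate block 4 were lower and 1 was higher in that mean. A sum of intensities weighs the brightest probes most, so the level total does not show an unchanged granulosa cell content. The summed levels of the remaining marker lists were 9.10 to 9.48 for macrophage, 10.15 to 10.93 for endothelial, 7.88 to 8.66 for Schwann and melanocyte and 6.77 to 7.11 for oocyte markers, and 0 of their genes were called with vehicle. The part of these cells in the Sox9 and Sox8 values was not tested. In RNA of whole cultures, more cells of a type and more RNA per cell cannot be told apart.

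Msln is also among the genes whose profile over the 8 arrays lay nearest to Sox9. Each gene was centred on its own mean, and the root mean square difference to Sox9 was 0.175 for Ccn4, a secreted matrix protein induced by WNT signals, 0.192 for Msln and 0.193 for Clic5, a chloride intracellular channel protein. Sox8 ranked 9th of the 13681 genes compared, at 0.311, and the median of all genes was 1.10. Nearest to Sox8 were Daam2, a formin of the WNT pathway (0.195), Etnk2, an ethanolamine kinase (0.217), and Slc27a6, a fatty acid transporter (0.227). Sox9 was 30th from Sox8. The mean levels of Ccn4 were 9.35 with vehicle and 9.78 with E2 under the control label, and 11.69 and 11.31 under the FOXL2 siRNA label. The 8 arrays share 1 slide, and likeness of profiles is a description only.

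Sox9 levels with E2 and with vehicle stood in opposite order under the siRNA labels. Under the control label both arrays with E2 were above both with vehicle, as for 11.4% of genes, by 0.75 between the arrays of replicate 1 and 0.82 between those of replicate 2. Under the FOXL2 siRNA label both were below vehicle, as for 17.2% of genes, with differences of -0.68 and -0.19. The change of 0.79 with control siRNA (SE 0.21) had a limma adjusted p of 0.712 and the change of -0.43 with FOXL2 siRNA had one of 1.0. The difference between these E2 effects was -1.22 (SE 0.30, limma adjusted p = 0.368, unadjusted p = 0.00365). For Sox8 the E2 changes were 0.70 (SE 0.18, limma adjusted p = 0.692) and -0.30, and their difference was -1.01 (SE 0.26, limma adjusted p = 0.419).

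The count of members called was 0 for E2 against vehicle with control siRNA and 0 with FOXL2 siRNA in limma, and 0 for the difference between the E2 effects. Over all genes the shares called were 0.0192%, 0.0128% and 0.243% (for the difference, 0.237% higher and 0.0064% lower). At an unadjusted p under 0.05, Sox9 and Sox8 were 2 of 5 members with control siRNA, 0 of 5 were with FOXL2 siRNA, and Sox9 and Sox8 were again 2 of 5 for the difference. Of all 15637 genes, 716, 478 and 765 were below 0.05 unadjusted. With normexp, the E2 changes with control siRNA were 0.40 for Sox9 (limma unadjusted p = 0.0275) and 0.24 for Sox8 (0.128). Those with FOXL2 siRNA were -0.36 (limma unadjusted p = 0.0438) and -0.32 (0.0495) under normexp. The differences between the E2 effects were then -0.76 for Sox9 (limma unadjusted p = 0.00688) and -0.55 for Sox8 (0.0216).

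Replicate numbers carried information in these arrays. The differences between replicates 1 and 2 correlated across genes between every pair of groups (0.329 to 0.445), and each number was also its own row of the slide. Shared mouse pools and slide position cannot be told apart here. With the replicate number as a block in the limma fit, 5 of 5 members were called in the vehicle comparison (4 higher and 1 lower, where 18.8% of all genes were called, 10.5% higher and 8.31% lower). With E2 it was 3 of 5, each higher (14.9% of all genes, 7.51% higher and 7.39% lower), and in the mean of both treatments 5 of 5 (27.7%, 14.2% higher and 13.5% lower). With the block Sox9 was also called for E2 against vehicle with control siRNA (adjusted p = 0.0219, where 1.16% of genes were called, 0.256% higher and 0.908% lower). The difference between the E2 effects was called for Sox9 (adjusted p = 0.00734) and Sox8 (adjusted p = 0.0361), where 2.12% of genes were called, 1.46% higher and 0.659% lower. No member was called with the block for E2 against vehicle with FOXL2 siRNA, where 0.614% of genes were, 0.46% higher and 0.153% lower.

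**Figure D3:**
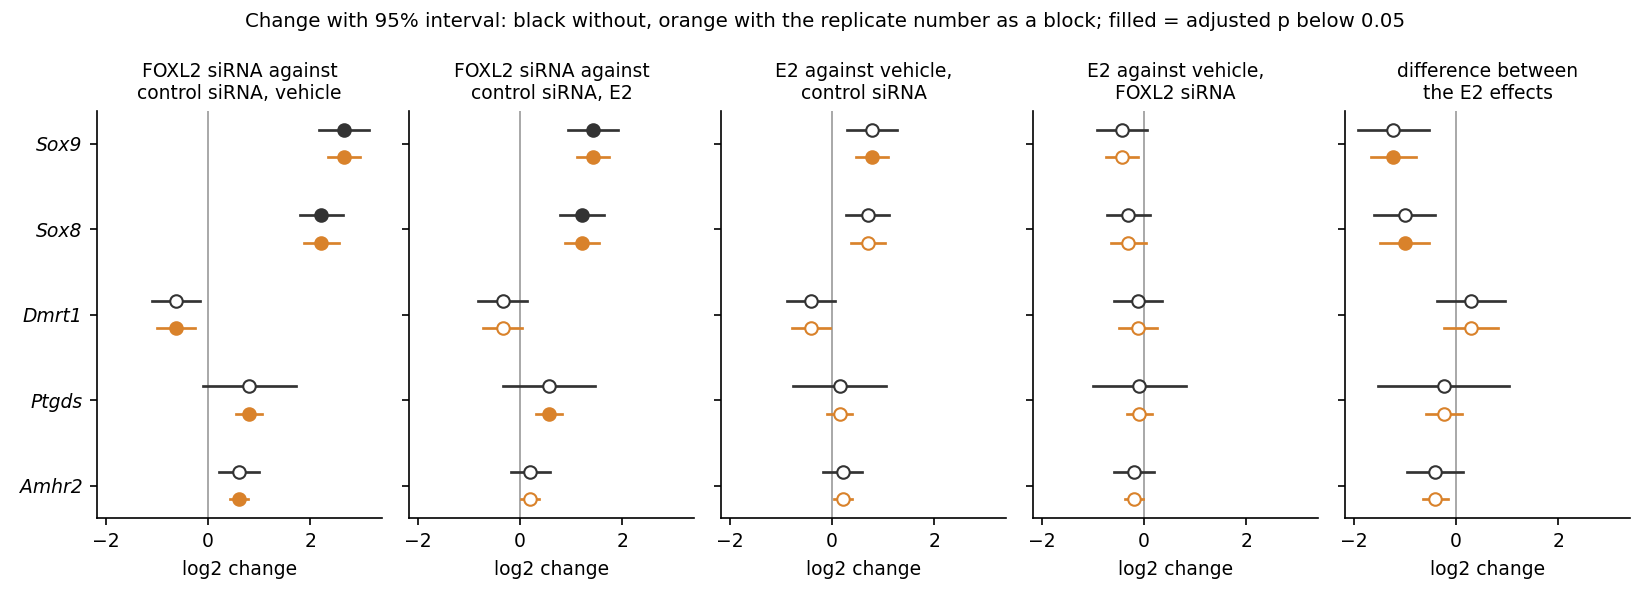
Log2 change (x axis) of the 5 tested members in 5 comparisons, with the 95% interval of each; black is the limma fit without and orange with the replicate number as a block, and filled points have an adjusted p below 0.05. Sox9 and Sox8 are filled in both fits for FOXL2 siRNA against control siRNA, and Ptgds and Amhr2 have the same change but a narrower interval with the block.

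Dmrt1 (Entrez 50796) had lower values in the arrays labelled FOXL2 siRNA, short of the threshold. Under the control label they were 7.25 and 6.72 with vehicle, then 6.52 and 6.62 with E2. Under the FOXL2 siRNA label they were 6.39 and 6.31 with vehicle and 6.33 and 6.14 with E2. All 4 arrays labelled FOXL2 siRNA were below all 4 labelled control siRNA, as for 10.7% of genes, but the range was small and 1 array, replicate 1 of control siRNA with vehicle, stood above the rest. The change was -0.63 with vehicle (SE 0.20, limma adjusted p = 0.13), -0.34 with E2 (adjusted p = 0.477) and -0.48 in the mean of both (SE 0.14, adjusted p = 0.0693). With the block it was called with vehicle (adjusted p = 0.0242) and in the mean (adjusted p = 0.0111). When control siRNA replicate 2 with vehicle was left out, the mean change was -0.62 and was called (adjusted p = 0.0282). Without replicate 1 of that group, the array that stood above the rest, the change was -0.36 with vehicle (adjusted p = 0.349) and -0.35 in the mean (adjusted p = 0.122). The E2 changes were -0.41 with control siRNA and -0.12 with FOXL2 siRNA.

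Of the 7 other DM domain genes, 3 were tested. Dmrta1, which like Dmrt1 encodes a factor with a DM DNA-binding domain, was the 1 called, with a change of -1.53 with vehicle (SE 0.31, limma adjusted p = 0.0262) and -0.41 with E2 (adjusted p = 0.583). Dmrt3 and Dmrta2 were not well above background on any array.

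Ptgds (Entrez 19215) had a wide spread between replicates, with group SDs of 0.29 to 0.65. Levels under the control label were 9.84 and 8.91 with vehicle, then 9.73 and 9.32 with E2. They were 10.57 and 9.80 with FOXL2 siRNA and vehicle, and 10.49 and 9.70 with FOXL2 siRNA and E2. Replicate 1 was above replicate 2 in every group, and the groups overlapped. The change was 0.81 with vehicle (SE 0.39, limma adjusted p = 0.313) and 0.57 with E2 (SE 0.39, adjusted p = 0.544). Leaving out 1 array moved these values to between 0.35 (without replicate 2 of control siRNA with vehicle) and 1.27 (without replicate 1 of that group) with vehicle, and to between 0.17 and 0.97 (without replicate 1 or 2 of FOXL2 siRNA with E2) with E2. Within replicate 1 it was 0.73 with vehicle and 0.76 with E2, and within replicate 2 it was 0.88 and 0.38. With the block both were called (adjusted p = 0.000372 and 0.00511), with SE 0.12. The differences of E2 from vehicle were 0.15 with control siRNA and -0.09 with FOXL2 siRNA, with 95% intervals of -0.76 to 1.06 and -0.996 to 0.818.

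The other genes of prostaglandin D2 signalling were few. Of 5 on the array, the haematopoietic prostaglandin D synthase gene Hpgds and the receptor gene Ptgdr were not well above background on any array, and 3 were tested. Ptgs1, which encodes the constitutive cyclooxygenase that supplies prostaglandin H2, was not well above background with control siRNA and vehicle and was well above it on both arrays with FOXL2 siRNA and vehicle. It was at least 1.38-fold higher there. No p is given, since Ptgs1 passed the filter on low values mainly through the arrays labelled FOXL2 siRNA, with 1 of 4 control siRNA arrays well above background. Ptgs2, the inducible cyclooxygenase, had changes of -1.26 with vehicle and -1.23 with E2, and was called in the mean of both (-1.25, SE 0.27, limma adjusted p = 0.0216) and, with the replicate block, in each treatment (adjusted p = 5.86e-06 and 1.03e-05).

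Amh (Entrez 11705) was not well above background on any of the 8 arrays. Its values lay between 1.45 and 1.90 on the log2 scale, near the lowest value of any probe on the arrays (1.13 to 1.53) and under the lowest level of a probe well above background (3.48 to 3.89). The raw intensity of the spot was 32.0 to 44.0 units and that of its surroundings 23.0 to 27.0. A level of Amh below that limit was not detectable with this probe, A_55_P2062953, and no change with siRNA or E2 can be given.

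Amhr2 (Entrez 110542), the receptor that binds AMH, was well above background on all 8 arrays. It was at 15.51 and 15.19 with vehicle and at 15.66 and 15.46 with E2 under the control label. With FOXL2 siRNA they were 16.11 and 15.81 under vehicle and 15.94 and 15.59 under E2. The groups with vehicle did not overlap, as for 22.5% of genes in the higher direction, and those with E2 did. The change was 0.61 with vehicle (SE 0.17, limma adjusted p = 0.0781), a 1.53-fold difference with an interval of 1.17 to 1.99. It was 0.20 with E2 (adjusted p = 0.627) and 0.41 in the mean of both (SE 0.12, adjusted p = 0.0624). With the block it was called with vehicle (adjusted p = 0.000219) and in the mean (0.00021), not with E2 (0.123). The mean was also called under quantile normalization (0.38, adjusted p = 0.0418) and when control siRNA replicate 1 with vehicle was left out (0.49, adjusted p = 0.0433). The 7 other omissions did not call it. When the first FOXL2 siRNA replicate with E2 was left out, the mean change was 0.32 (adjusted p = 0.162) and the change with E2 was 0.03. E2 effects were 0.21 with control siRNA and -0.20 with FOXL2 siRNA (limma adjusted p = 1.0 for the difference of -0.40). Before scaling, the Amhr2 spot intensities under the FOXL2 siRNA label were 62350 and 51480 with vehicle and 63770 and 54050 with E2. The scaling factors of these arrays were 283 and 286 with vehicle and 325 and 351 with E2. Unscaled intensities of different arrays are not on one scale, and the part of the scaling in the lower E2 values was not tested. The E2 change of Amhr2 under that label was -0.11 with quantile normalization and -0.18 with normexp.

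Downstream of the receptor, 12 of 12 AMH signalling genes were measured and tested. In the arrays labelled FOXL2 siRNA with vehicle, 3 were lower and 0 higher, with a median change of -0.31 against -0.01 over all genes. Bmpr1b, a type I receptor, fell by 1.55 (SE 0.36, limma adjusted p = 0.0457). Id3 and Id1, target genes of BMP-type SMADs, fell by 1.11 (SE 0.15, limma adjusted p = 0.00598) and 0.63 (SE 0.09, limma adjusted p = 0.00787). With E2, 0 of 12 were called in limma, and 5 of 12 had an unadjusted p under 0.05, as did 2591 of all 15637 genes. With the replicate block 1 was higher and 4 were lower with E2, and 1 was higher and 5 were lower with vehicle. The other 9 genes changed between -0.41 and 0.40 with vehicle, and the type I receptor genes Acvr1 and Bmpr1a had -0.01 and -0.41. In the mean of both treatments 4 were lower, Bmpr1b, Id3, Bmpr1a and the inhibitory Smad6. Id1 was the 1 gene of these lists whose E2 effects differed in limma. Its levels were 11.04 and 10.90 with control siRNA and vehicle and 10.33 and 10.38 with E2, and with FOXL2 siRNA they were 10.30 and 10.39 and then 10.64 and 10.70. E2 thus went with lower Id1 under one label and higher Id1 under the other, and the difference was 0.94 (SE 0.13, limma adjusted p = 0.0446). These genes also serve BMP ligands, so they do not report on AMH alone.

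Among 14 other Sertoli and testis-side genes, 12 were tested, and Sry and Nr0b1 were not well above background on any array. With vehicle, 2 were called higher and 0 lower, with a median change of 0.51 against -0.01 over all genes. One of them, Gata1, passed the filter on low values only through the arrays labelled FOXL2 siRNA, so its call is no support and its p is not given. Dhh, the hedgehog ligand that Sertoli cells secrete, rose from 11.05 and 11.10 to 12.32 and 12.50, a change of 1.34 (SE 0.14, limma adjusted p = 0.00267). Gata1, an erythroid and Sertoli GATA factor, was not well above background in the control siRNA groups and was in both FOXL2 siRNA groups. It was at least 2.85-fold higher with vehicle and at least 1.97-fold higher with E2. With E2, Dhh was higher by 0.74 (SE 0.14, limma adjusted p = 0.0293), and Gdnf, a growth factor for spermatogonial stem cells, was lower by -0.90 (SE 0.19, adjusted p = 0.0422). In the mean of both treatments, Dhh and the homeobox gene Rhox5 (0.68, SE 0.18, limma adjusted p = 0.0435) were higher besides Gata1, and 0 were lower. The remaining genes lay between -0.26 and 2.28 with vehicle, the last being Cst9, a cystatin, with an adjusted p of 0.276. With the block the counts, Gata1 included, were 6 higher and 0 lower with vehicle, 6 higher and 1 lower with E2, and 10 higher and 0 lower in the mean.

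**Figure D4:**
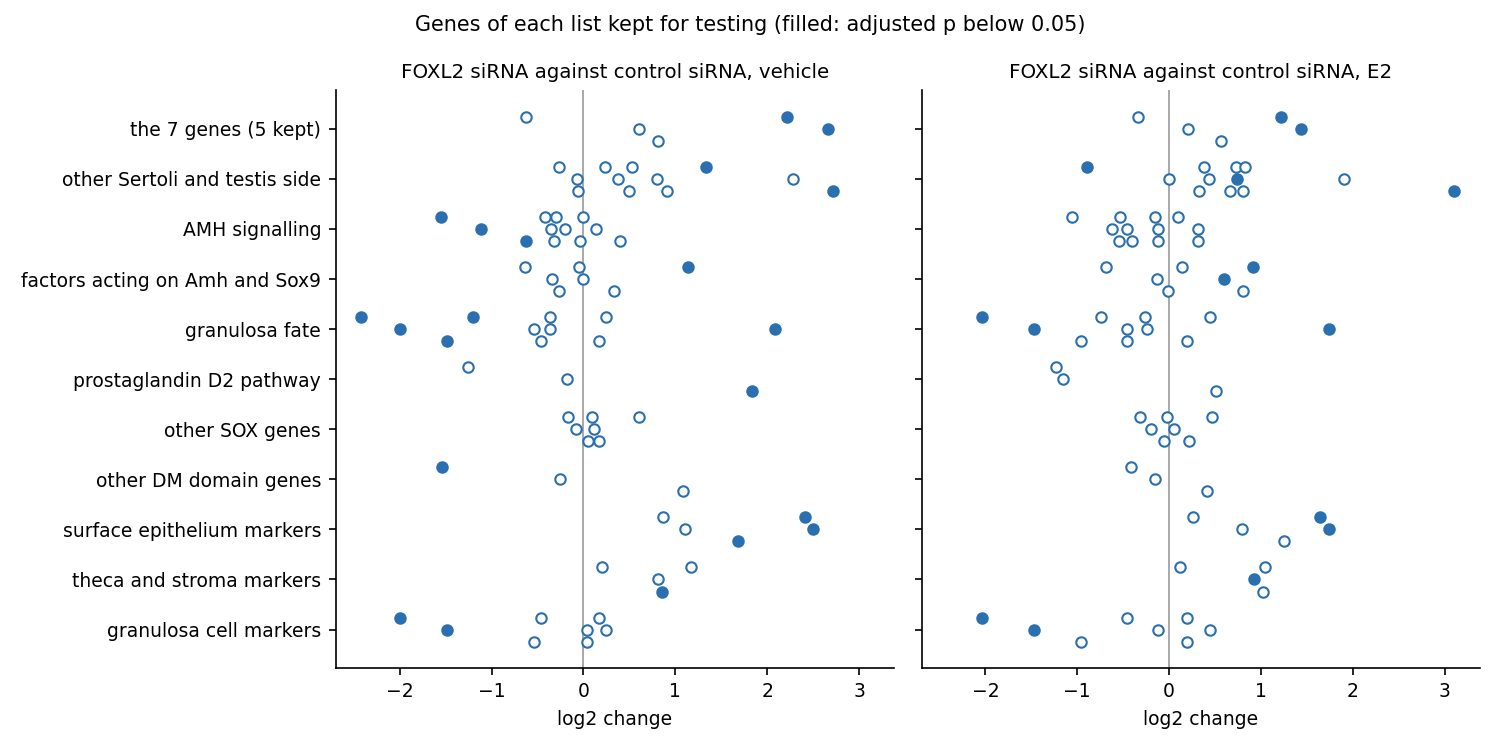
Log2 change (x axis) of every tested gene of 11 lists (y axis) in the arrays labelled FOXL2 siRNA against control siRNA, with vehicle on the left and E2 on the right; filled points have a limma adjusted p below 0.05. Sox9, Sox8, Dhh and the surface epithelium markers Msln and Muc16 lie to the right in both panels; the points of Gata1 and Ptgs1 are fitted values, for which the text gives bounds.

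Of 8 factors known to act on the Amh and Sox9 genes, 7 were tested. Wt1, a zinc finger factor of both supporting lineages that is also made by surface epithelium, was at 12.98 and 12.78 with control siRNA and vehicle and at 14.13 and 13.91 with FOXL2 siRNA and vehicle. Its change was 1.14 with vehicle (SE 0.10, limma adjusted p = 0.0019) and 0.91 with E2 (SE 0.10, adjusted p = 0.00494). Gata4 was higher with E2 by 0.60 (SE 0.12, limma adjusted p = 0.0353) and had 0.34 with vehicle (adjusted p = 0.17). The FGF receptor gene Fgfr2 was lower in the mean of both treatments (-0.66, SE 0.12, limma adjusted p = 0.00922). Nr5a1, Ctnnb1, Fgf9 and Zfpm2 were not called in any of these comparisons without the replicate block. With it, Fgf9, a ligand of that receptor family, was called higher with E2 (0.80, adjusted p = 0.000192) and in the mean (adjusted p = 0.0149), Nr5a1 was called lower with vehicle (-0.34, adjusted p = 0.0115), and Fgfr2 and Gata4 were called in both treatments.

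The granulosa side of the balance had called genes in both directions. Of 11 granulosa fate genes tested, 1 was higher and 4 lower with vehicle, and 1 higher and 2 lower with E2. Lower were Bmp2 (-2.42, limma adjusted p = 0.0328), Fst, which encodes follistatin (-1.997, adjusted p = 0.00208), Hsd17b1, which encodes an estradiol-forming enzyme (-1.48, adjusted p = 0.0163), and Foxo1 (-1.20, adjusted p = 0.0189) with vehicle. Fst and Hsd17b1 were lower with E2 as well, by -2.04 and -1.47. With the replicate block the counts were 1 higher and 7 lower with vehicle and 2 higher and 4 lower with E2. The 1 higher gene without it was Rspo1, a WNT co-ligand of ovarian differentiation that is also made by surface epithelium, with 2.08 with vehicle (SE 0.26, limma adjusted p = 0.00459) and 1.73 with E2.

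**Figure D5:**
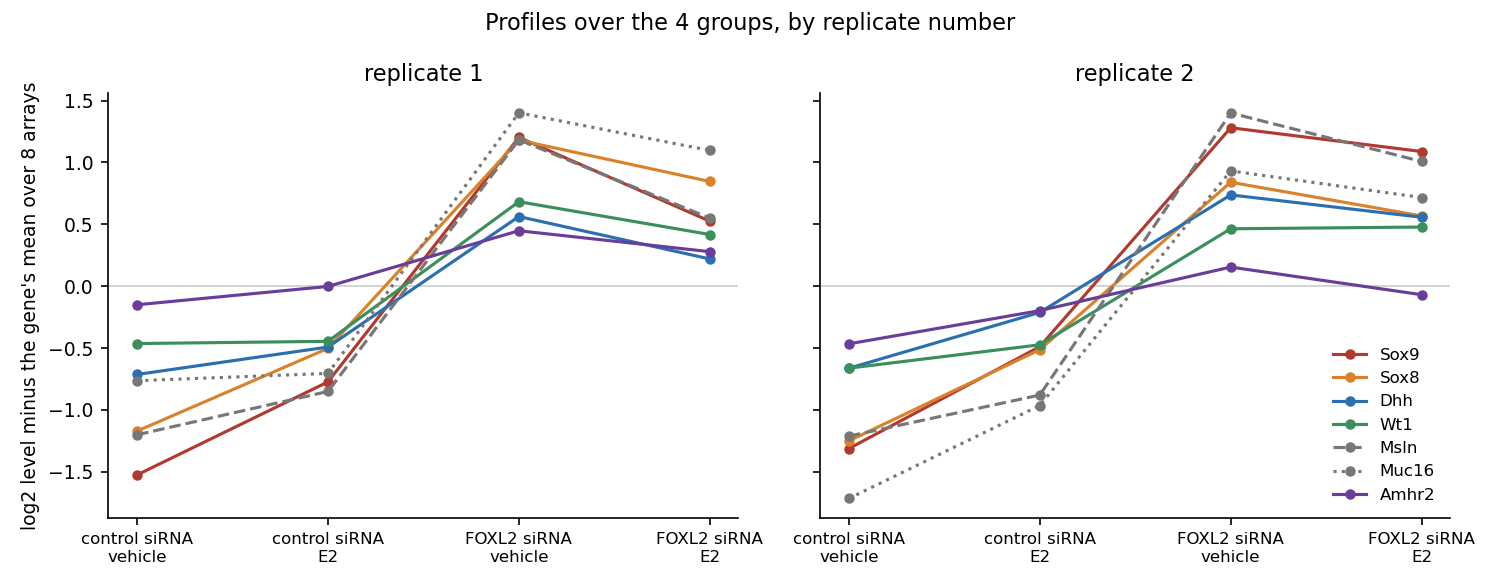
Log2 level of 7 genes minus the mean of each gene over the 8 arrays (y axis) in the 4 groups (x axis), with replicate 1 on the left and replicate 2 on the right; lines join the values of one gene. Sox9, Sox8, Dhh, Wt1 and the surface epithelium markers Msln and Muc16 are higher with FOXL2 siRNA than with control siRNA in both replicates, and Amhr2 has the smallest range.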

How the data were processed

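RNA (50 ng per sample) was hybridised to 1-colour Agilent arrays, and 8 arrays on 1 slide, scanned on 1 day, were used. Per the file headers, the authors extracted spot intensity with Agilent Feature Extraction 11.5.1.1, which subtracts background, on an array design built on mm9. The processed intensity of each spot was scaled here to the 75th percentile of its array and taken to log2. The deposited table of log2 values held the same values within 0.01 for 99.5 to 99.6% of genes and served as an alternative. Of 62976 spots, 3671 were controls. Spots with outlier flags were left out, which left 55642 probes, and probes of one Entrez ID were averaged (24235 genes). Genes with a median scaled intensity under 10 were not tested. The scanner flagged 51.4 to 55.6% of probes as well above background, depending on the array.

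Arrays were grouped by their labels into 4 groups of 2. All 4 groups were fitted together with limma 3.58.1 (R 4.3.3; lmFit and eBayes with an intensity trend, residual df 4), without a replicate term, and p-values were adjusted by Benjamini-Hochberg over the 15637 genes, with a threshold of 0.05. Scripts used Python 3.11.15, and the fit was tested on simulated data. Same-numbered arrays deviated together (correlation of replicate differences 0.329 to 0.445 over 6 pairs of groups), so a fit with the replicate number as a block was also run. Alternatives were normexp (offset 50), quantile normalization, the deposited table, the brightest probe, no filter, a detection filter (15345 genes), no intensity trend, only the groups compared, and leaving out each array.

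The text names the 7 members, Foxl2, at most 5 called genes per list and comparison, and the 3 genes nearest to Sox9 and to Sox8. Genes outside that rule are named as undetected or as examples and were chosen after their values were seen. The members and lists were chosen with earlier results of these data known. Where a group was not well above background, the fold is a bound: the bright group's mean log2 level against the dim group's mean of the higher of its own value and the lowest level of a probe well above background on each array. Symbols and promoters came from RefSeq tables, which named 22352 of the genes. The result for 1 gene is not reported here.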

Additional observations from a re-analysis of the deposited data

Results flagged for a closer look

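The difference between the E2 effects stood out for 4 genes. For Id1 it was 0.94 (SE 0.13) and passed the test of the difference itself (limma adjusted p = 0.0446), with E2 changes of -0.62 with control siRNA and 0.33 with FOXL2 siRNA. For Sox9 it was -1.22, for Sox8 -1.01 and for Amhr2 -0.40, where both replicates were higher with E2 under the control siRNA label and both were lower under the FOXL2 siRNA label. Unscaled intensities are not on one scale between arrays, with scaling factors of 286 with vehicle and 351 with E2 in replicate 2 under that label. Before scaling, Amhr2 under the FOXL2 siRNA label was higher with E2 in both replicates. In replicate 2 the unscaled values of Sox9 and Sox8 were also higher with E2 (for Sox8, 148.9 against 146.7). The test of the difference did not pass for Sox9, Sox8 and Amhr2 without the replicate block (limma adjusted p = 0.368, 0.419 and 1.0). With it, Sox9 and Sox8 passed (0.00734 and 0.0361) and Amhr2 did not (0.129).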

How the results depend on the processing

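Of the single-member changes, 249 of those under other settings stayed on the same side of the threshold and 11 passed it only under the alternative. With arrays left out, 224 stayed, 2 passed newly, 7 no longer passed and 7 changed sign. With the replicate number as a block (pairing), 5 members were called with vehicle (4 higher, 1 lower) and 5 in the mean of both treatments, 1 for E2 against vehicle with control siRNA and 2 for the difference between the E2 effects, where the fit without it called 2, 2, 0 and 0. The block called 3 with E2, against 2. With 1 array left out, the members called for FOXL2 siRNA against control siRNA with E2 numbered 0 to 2, and 0 without either control siRNA array with E2 or without replicate 2 of FOXL2 siRNA with E2. By the study's own rule 1 member met it with E2 under normexp, against 2. The Ptgds differences of E2 from vehicle changed sign without single arrays. Over all omissions they ranged from -0.31 to 0.61 with control siRNA, from -0.49 to 0.31 with FOXL2 siRNA and from -0.70 to 0.22 for their difference. The causes were not tested. Signal over background limits Sox10 and Amh, for which only an upper bound can be given, and the residual degrees of freedom limit all tests.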
